A study of Mus musculus with 12 samples.

Results

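The FK506-binding proteins (FKBPs) are enzymes that turn proline bonds in other proteins, and several of them bind the drugs FK506 and rapamycin. The RNA of 10 mouse FKBP genes was followed here out of 49315 genes in the count tables: Fkbp1a, Fkbp3, Fkbp4, Fkbp5 and Fkbp8, whose proteins work outside the endoplasmic reticulum (ER), and Fkbp2, Fkbp7, Fkbp9, Fkbp10 and Fkbp14, whose proteins work inside it. The members were chosen by name, and each stood on 1 gene ID once the IDs were matched to GENCODE M21 symbols. The cells were fibroblasts from mouse embryos, the collagen-making cells of connective tissue, of which the labels give no strain, genotype or age. Every group was exposed for 24 h and sequenced as 3 libraries: the solvent DMSO alone, rapamycin at 20 ng/ml, Torin1 at 250 nM, or RapaLink-1 at 10 nM. Because the doses differ in kind and in amount, a difference between compounds is a difference between these treatments as given.

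Rapamycin does not reach its target alone. It first binds FKBP12, the small cytosolic protein that Fkbp1a encodes, and the pair then binds the kinase mTOR, mainly as part of mTOR complex 1. RapaLink-1 carries a rapamycin part joined to an inhibitor of the mTOR active site, whereas Torin1 blocks that site directly and needs no FKBP. Other FKBPs have other duties: Fkbp4 (FKBP52) and Fkbp5 (FKBP51) are helpers of the chaperone HSP90 in steroid receptor complexes, and the ER members help to fold secreted and membrane proteins, with Fkbp10 (FKBP65) and Fkbp14 (FKBP22) known for their work on collagen.

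Library totals ran from 30075870 to 39423703 counts, and all 10 members passed the filter on low counts. Whether replicate libraries stem from separate dishes is not stated in the labels, so each p-value measures only their spread, which may be technical. That spread was estimated mostly from all genes together, not from each gene alone. The summed level of 8 fibroblast markers was 16419 to 16734 CPM (counts over the TMM-scaled library size) in DMSO, 14198 to 14506 in rapamycin, 12488 to 12658 in Torin1 and 12576 to 12840 in RapaLink-1, so it was lower in each treated group; 5 of the 8 rose and 2 fell with Torin1, 3 rose and 4 fell with RapaLink-1, and 3 rose and 5 fell with rapamycin. One of these markers, Lum, lay at 0.0327 to 1.42 CPM. Markers of other cell types were low: 4 epithelial markers summed to 0.247 to 1.02 CPM over all libraries, and 3 of 4 muscle markers (Myod1, Myog and Ckm) and the leukocyte marker Tyrobp had no count. The sum of 4 endothelial markers rose from 0.762 to 1.56 CPM in DMSO to 2.32 to 2.48 in Torin1 and 2.65 to 2.93 in RapaLink-1, and that of 4 leukocyte markers from 0.208 to 0.552 to 1.11 to 1.28 and 0.980 to 1.38. Kdr, with 661 counts over all libraries, made up most of the endothelial sum (Pecam1 88, Tek 29 and Cdh5 18). Csf1r, with 341 counts, made up most of the leukocyte sum (Ptprc 6 and Adgre1 1). Of 4 neural markers, Map2 alone was well above the rest, at 61.4 to 84.9 CPM. The part of these marker levels in the results was not tested.

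In cells given the solvent DMSO alone the 10 genes spanned a wide range of levels. On the scale of counts per library size and kilobase of exon (RPKM, which allows genes of different length to be compared), Fkbp4 was the highest in DMSO at 136 ± 1.11 (SD, n = 3), and it stood above 97.8% of the genes tested. Fkbp3 followed at 119 ± 1.70, Fkbp9 at 110 ± 1.38, Fkbp1a at 99.7 ± 1.23, Fkbp10 at 92.6 ± 1.27 and Fkbp2 at 84.9 ± 3.84. Fkbp8 lay at 43.2 ± 0.946, and the lowest were Fkbp5 at 14.6 ± 0.611, Fkbp7 at 14.2 ± 0.153 and Fkbp14 at 7.00 ± 0.314. Fkbp5 and Fkbp7 were the only neighbours in this order whose DMSO libraries overlapped. The length used counts every annotated exon of a gene, so a gene whose transcripts use only some of them stands too low. Which transcripts the cells make was not tested, and the order and the sums below depend on these lengths.

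The order changed with treatment mainly through Fkbp4, Fkbp5 and Fkbp2. Fkbp4 dropped from the first to the fifth place in all 3 treated groups, at 81.8 ± 2.06 RPKM in rapamycin, 67.1 ± 0.570 in Torin1 and 65.9 ± 0.979 in RapaLink-1, and Fkbp3 led instead. Fkbp5 went to the ninth place in rapamycin, where its libraries overlapped those of Fkbp7, and to the last in Torin1 (5.46 ± 0.245 RPKM) and RapaLink-1 (6.52 ± 0.154). Its libraries overlapped those of Fkbp14 in RapaLink-1 but not in Torin1. Fkbp2 kept the sixth place but came down to the level of Fkbp8, with overlapping libraries, in Torin1 (40.3 ± 1.18 against 40.0 ± 0.717) and in RapaLink-1 (40.8 ± 0.797 against 40.7 ± 0.218). In RapaLink-1, Fkbp3 also overlapped Fkbp9, and Fkbp1a overlapped Fkbp10.

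**Figure D1:**
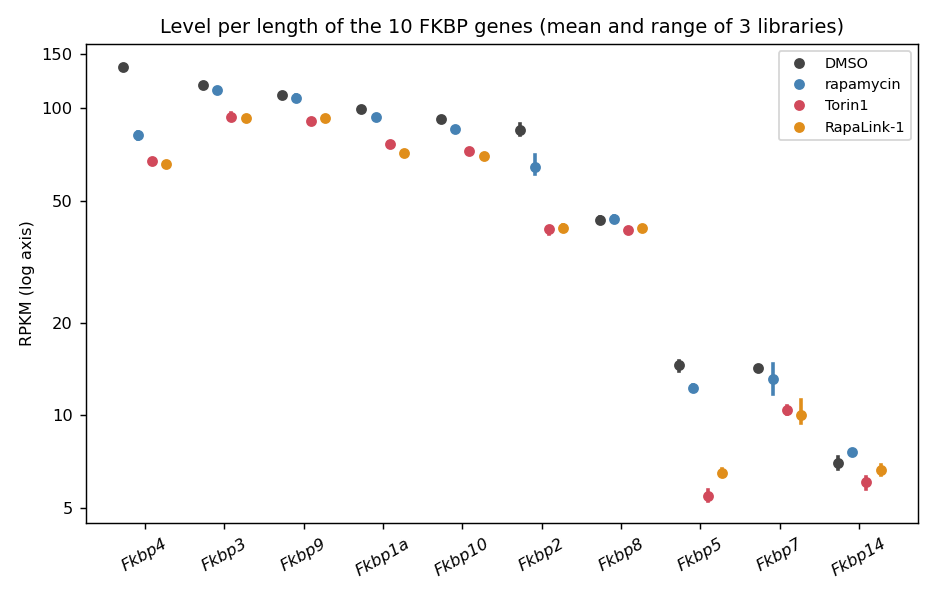
Level per length (RPKM, log axis) of the 10 FKBP genes, ordered by their DMSO level, with a point for the mean and a line for the range of the 3 libraries of a group. Fkbp4 leads in DMSO at 136 and lies at 65.9 to 81.8 in the treated groups, and Fkbp5 comes down from 14.6 to 5.46 in Torin1.

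Added over the 10 genes, the family's level was 722 ± 4.37 RPKM in DMSO, 625 ± 9.33 in rapamycin, 504 ± 3.61 in Torin1 and 498 ± 2.27 in RapaLink-1 (SD, n = 3). The libraries of each treated group lay below all DMSO libraries. The ER members contributed 42.8% ± 0.528 of this sum in DMSO, 44.7% ± 0.367 in rapamycin, 43.8% ± 0.139 in Torin1 and 44.2% ± 0.281 in RapaLink-1. The share held by ER members was thus a little higher in each treated group than in any DMSO library. RNA levels here are relative to the total of a library taken from many cells, so fewer cells with a transcript and less of it per cell cannot be told apart.

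Against DMSO, Torin1 lowered all 10 FKBP genes and RapaLink-1 lowered 9 of 10, while rapamycin lowered 6, raised 1 and left 3 without a call. A call here means an adjusted p under 0.05 (edgeR, quasi-likelihood F test, Benjamini-Hochberg over 15917 genes). In this series calls are common: among all genes tested, 78.0% were called with Torin1 (39.8% rose and 38.3% fell), 76.7% with RapaLink-1 (38.7% rose and 37.9% fell) and 59.7% with rapamycin (27.5% rose and 32.2% fell). The libraries of the compared groups did not overlap for all 10 members with Torin1, 9 with RapaLink-1 and 7 with rapamycin, against 78.5%, 77.6% and 63.0% of all genes. The falls of the family with Torin1 and RapaLink-1 therefore stand beside a fall of 38.3% and 37.9% of genes, and the number of calls in either direction says little. The median log2 fold change of the 10 members was -0.36 with Torin1, -0.44 with RapaLink-1 and -0.10 with rapamycin, and that of all genes was 0.04, 0.03 and 0.00. These 3 comparisons use the same DMSO libraries.

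Members of the ER and members outside it moved by similar amounts. With Torin1 the median log2 fold change of the 5 ER members was -0.35 (from -1.07 to -0.21) and that of the 5 others was -0.38 (from -1.42 to -0.11). RapaLink-1 gave -0.41 and -0.48, and rapamycin gave -0.10 and -0.09. Each side held genes that changed strongly and genes that barely changed, so the spread within a side was far wider than the gap between the sides. When libraries were scaled by upper-quartile factors these medians shrank to -0.22 and -0.26 with Torin1, -0.27 and -0.34 with RapaLink-1 and -0.04 and -0.03 with rapamycin, and the calls became 3 rises and 4 falls with rapamycin, 8 falls with Torin1, and 1 rise and 8 falls with RapaLink-1. Leaving out genes averaging under 5 CPM gave 2 rises and 4 falls with rapamycin, 9 falls with Torin1 and 8 with RapaLink-1. Upper-quartile factors shifted all genes by a median of 0.13 with Torin1 and 0.14 with RapaLink-1 on the log2 scale. The 5 CPM filter shifted the genes it kept by a median of 0.09 with Torin1 and 0.09 with RapaLink-1.

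**Figure D2:**
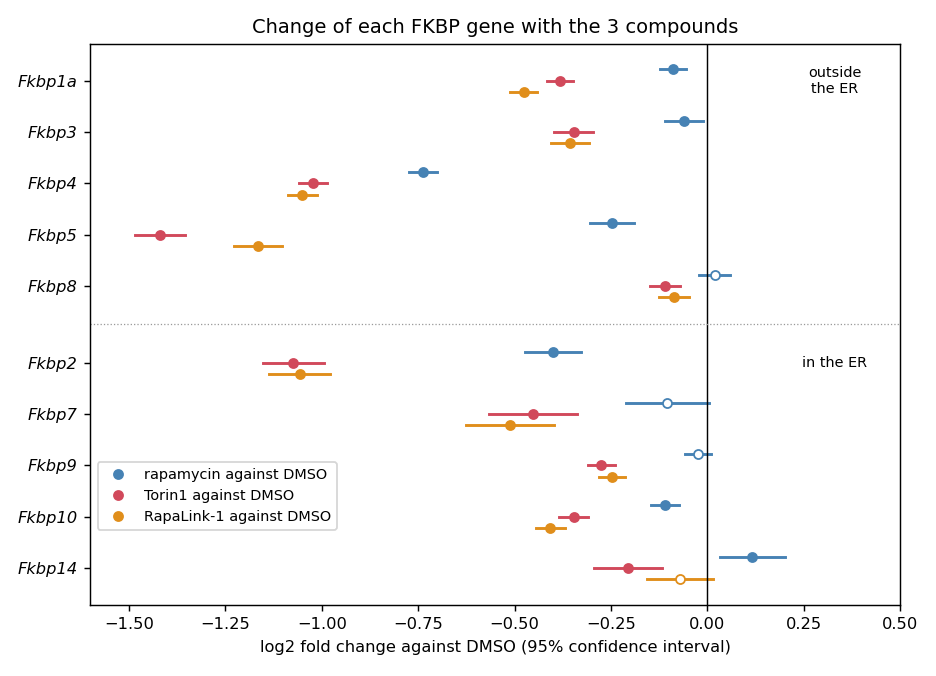
Log2 fold change against DMSO (x axis) with its 95% confidence interval for each FKBP gene (y axis) and each compound, filled where called at an adjusted p under 0.05. Fkbp4, Fkbp5 and Fkbp2 lie farthest to the left with Torin1, at -1.02, -1.42 and -1.07, whereas Fkbp8 lies near 0 with all 3 compounds.

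Fkbp5, Fkbp2 and Fkbp4 were the members that fell most with Torin1, and the sequences just before their RefSeq starts are shown for that reason. Each line gives the 250 bases before the start of transcription (RefSeq, GRCm38.p6, 5′ to 3′ on the gene's strand), with matches on either strand to the 5 short motifs named after the sequences in capitals. Fkbp4 stands at chr6:128438657-128438906 on the minus strand, Fkbp5 at chr17:28486150-28486399 on the minus strand, and Fkbp2 at chr19:6980465-6980714 on the minus strand.
Fkbp4: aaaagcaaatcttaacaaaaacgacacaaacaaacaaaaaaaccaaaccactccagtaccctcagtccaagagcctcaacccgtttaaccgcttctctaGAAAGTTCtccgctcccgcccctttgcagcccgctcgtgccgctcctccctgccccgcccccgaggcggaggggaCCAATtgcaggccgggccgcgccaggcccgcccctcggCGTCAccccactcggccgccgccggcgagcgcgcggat
Fkbp5: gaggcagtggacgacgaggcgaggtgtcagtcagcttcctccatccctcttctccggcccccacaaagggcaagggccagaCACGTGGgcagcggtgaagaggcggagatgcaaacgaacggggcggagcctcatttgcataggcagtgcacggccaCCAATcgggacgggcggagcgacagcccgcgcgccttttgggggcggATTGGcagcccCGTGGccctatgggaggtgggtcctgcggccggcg
Fkbp2: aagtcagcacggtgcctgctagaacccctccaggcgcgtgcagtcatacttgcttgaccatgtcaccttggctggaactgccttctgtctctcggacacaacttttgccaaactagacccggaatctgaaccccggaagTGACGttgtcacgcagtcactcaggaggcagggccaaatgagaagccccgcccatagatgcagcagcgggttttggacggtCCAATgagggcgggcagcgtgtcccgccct
All 3 windows hold the CCAAT box, a site of general promoter factors, which 33.8% of 32851 promoters in the table hold; its match nearest the start begins 76 bases before it in Fkbp4, 46 in Fkbp5 and 30 in Fkbp2. The Fkbp8 window, of a gene that changed little, holds CCAAT as well, at 2 places. The GC box GGGCGG, which is not put in capitals, is also in all 3 windows, at 3 places in each, and in 32.7% of promoters. It is in the windows of Fkbp3, Fkbp7 and Fkbp8 too. Fkbp4 alone of the 9 members with an entry holds GAANNTTC, the core of the element read by heat shock factors (6.69% of promoters), 151 bases before its start. Fkbp5 alone of the 9 holds the E-box CACGTG (6.02%), 169 bases before its start, and this match overlaps a CCACG. The core of the cyclic AMP response element, TGACG (17.8%), is in Fkbp4 and Fkbp2 but not in the Fkbp5 window, and it is also in the windows of Fkbp1a and Fkbp7. The ER stress response element, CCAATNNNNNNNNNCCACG, is in 0.113% of promoters and in none of these 9 windows; its CCACG end is in 28.3%. The Fkbp5 start used here lies 31375 bases from the outermost end of the gene in the count tables, which list further upstream exons. A match is a description of letters only. Fkbp10 had no entry.

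Fkbp1a, which encodes the receptor of rapamycin, was among the best covered members, with 8319 to 14834 counts per library. The gene (ENSMUSG00000032966) lies at chr2:151542483-151561692 (GRCm38) on the plus strand. Its level was 389.6, 383.1 and 380.4 CPM in DMSO, 363.5, 359.3 and 361.1 in rapamycin, 297.4, 295.3 and 292.4 in Torin1, and 271.7, 279.8 and 277.3 in RapaLink-1. The 4 groups do not overlap, and each treated group lies below the DMSO libraries. Torin1 lowered it by 0.38 ± 0.02 (log2, SE; adjusted p = 1.04e-49) and RapaLink-1 by 0.48 ± 0.02 (adjusted p = 2.24e-61), that is, it fell by 23.3% and 28.1%. The rapamycin change was small, -0.09 ± 0.02 (adjusted p = 1.48e-06), and it was no longer called with upper-quartile factors (-0.03, adjusted p = 0.174) or when genes averaging under 5 CPM were left out (-0.03, adjusted p = 0.084). RapaLink-1 and Torin1 differed by -0.09 ± 0.02 (adjusted p = 3.94e-06). Of the exonic 50-base words of Fkbp1a, 0.07% also occur in its pseudogene Fkbp1a-ps1, so few reads could be split between them.

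Known targets of FKBP12, with or without a drug, and partners of mTOR in its complexes moved in both directions, as genes did in general. Among all genes tested, 39.8% rose and 38.3% fell with Torin1, 38.7% and 37.9% with RapaLink-1, and 27.5% and 32.2% with rapamycin. Of 19 tested genes for mTOR, its complex partners, calcineurin, TGF-beta family receptors and calcium channels, 13 rose and 6 fell with Torin1, 11 rose and 6 fell with RapaLink-1, and 5 rose and 4 fell with rapamycin; their median log2 fold changes were 0.27, 0.25 and -0.02. With upper-quartile factors 13 rose and 4 fell with Torin1 and with RapaLink-1, and 7 rose and 2 fell with rapamycin. Mtor itself rose with all 3 compounds, by 0.15 with rapamycin, 0.23 with Torin1 and 0.18 with RapaLink-1. Rictor, the defining subunit of mTOR complex 2, rose by 0.22, 0.69 and 0.52 in the same order. Rptor, its counterpart in complex 1, changed by -0.20, -0.51 and -0.43, and Mlst8, a subunit of both, by -0.07 (no call), -0.75 and -0.73. The strongest rise with Torin1 among well expressed genes of this list was that of Acvr1b, an activin receptor, at 1.47.

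Fkbp4 showed the strongest response to rapamycin in the family. Its level was 381.5, 378.2 and 384.4 CPM in DMSO, 234.3, 222.7 and 228.9 in rapamycin, 185.9, 188.5 and 188.7 in Torin1, and 183.4, 187.2 and 181.9 in RapaLink-1. Every treated library lies far below DMSO, and the rapamycin libraries lie between DMSO and the other compounds. The fall was 0.74 ± 0.02 on the log2 scale with rapamycin (40.0%, adjusted p = 5.86e-84), against a change of -1.02 ± 0.02 with Torin1 (adjusted p = 1.40e-104) and -1.05 ± 0.02 with RapaLink-1 (adjusted p = 5.06e-106). RapaLink-1 and Torin1 did not differ by the test (-0.03, 95% interval -0.07 to 0.01). The gene (ENSMUSG00000030357, chr6:128429735-128438677, minus strand) overlaps no other gene's exons.

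Fkbp5, whose protein shares the HSP90 site of FKBP52 and tends to act against it on the glucocorticoid receptor, responded differently to the compounds. Its libraries gave 88.7, 94.7 and 96.0 CPM in DMSO, 79.2, 79.7 and 76.4 in rapamycin, 33.4, 36.5 and 34.4 in Torin1, and 40.5, 42.5 and 41.3 in RapaLink-1. No groups overlap, and the Torin1 libraries are the lowest. The log2 change was -0.25 ± 0.03 with rapamycin (adjusted p = 1.97e-14), -1.42 ± 0.03 with Torin1 (adjusted p = 4.08e-89) and -1.16 ± 0.03 with RapaLink-1 (adjusted p = 9.20e-79). Torin1 thus lowered it by 62.6%, the largest fall of any member, and it was higher in RapaLink-1 than in Torin1 by 0.25 ± 0.04 (adjusted p = 3.27e-09). The gene (ENSMUSG00000024222) lies at chr17:28399095-28517524 on the minus strand.

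Because Fkbp4 and Fkbp5 are counted in the same libraries, their ratio needs no scaling. For every 100 Fkbp4 counts there were 23.2, 25.0 and 25.0 Fkbp5 counts in DMSO, 33.8, 35.8 and 33.4 in rapamycin, 18.0, 19.3 and 18.2 in Torin1, and 22.1, 22.7 and 22.7 in RapaLink-1. Rapamycin moved the balance towards Fkbp5, from 24.4 ± 1.01 to 34.3 ± 1.28 (SD, n = 3), while Torin1 moved it the other way, to 18.5 ± 0.733. RapaLink-1 lay just below DMSO, at 22.5 ± 0.350. No groups overlapped, and each of the 6 pairs gave p = 0.1 in an exact two-sided permutation test, the smallest that 3 libraries against 3 allow.

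HSP90, its other helpers and their receptors fell with all 3 compounds for the most part. Of 18 tested genes, 15 fell and none rose with rapamycin, 15 fell and 2 rose with Torin1, and 14 fell and 3 rose with RapaLink-1, with median log2 fold changes of -0.43, -0.49 and -0.43. The stress-induced Hsp90aa1 changed by -0.62 with rapamycin, -1.01 with Torin1 and -0.80 with RapaLink-1. Its constitutive partner Hsp90ab1 had a different order, -0.58, -0.11 and -0.15. Stip1, which links HSP70 to HSP90, changed by -0.55, -0.97 and -0.88, and Ptges3, the p23 co-chaperone, by -0.49, -0.92 and -0.94. Hspa4 had the largest fall with Torin1 (-1.10), and Hspa8, the constitutive HSP70, rose (0.33) with Torin1 and fell (-0.40) with rapamycin.

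The glucocorticoid receptor gene itself, Nr3c1, moved little: -0.11 with rapamycin, -0.12 with Torin1 and 0.08 with RapaLink-1, each called. Upper-quartile factors shifted all genes upwards by a median of 0.06, 0.13 and 0.14 in that order, so calls of this size can depend on the scaling. Fkbp5 is itself a well-known target of the glucocorticoid receptor. Of 11 other tested targets, 7 rose and 2 fell with rapamycin, 8 and 2 with Torin1, and 8 and 1 with RapaLink-1. Dusp1, a phosphatase of MAP kinases, rose most with Torin1 (1.57) and Ddit4, which restrains mTOR complex 1, fell most (-3.16). Tsc22d3, the glucocorticoid-induced leucine zipper gene, was not called with any compound (-0.01, 0.11 and 0.10). Many of these genes have other inducers.

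Fkbp3, which encodes the nuclear FKBP25, had 113.7, 111.0 and 113.9 CPM in DMSO, 108.4, 110.0 and 106.5 in rapamycin, 91.1, 86.9 and 88.5 in Torin1, and 87.4, 87.8 and 89.2 in RapaLink-1. Torin1 and RapaLink-1 lie well below DMSO and on top of each other, and rapamycin lies just below DMSO. The fitted log2 change came to -0.35 ± 0.03 with Torin1 (adjusted p = 1.49e-28) and -0.36 ± 0.03 with RapaLink-1 (adjusted p = 1.62e-29). With rapamycin it was -0.06 ± 0.02 (adjusted p = 0.0243), a call that was lost without DMSO replicate 1 (adjusted p = 0.0725), DMSO replicate 3 (0.0728) or rapamycin replicate 3 (0.117), with upper-quartile factors (0.949), in a fit of the 2 groups alone (0.174) and when genes averaging under 5 CPM were left out (0.926). Its values are uncertain, because 32.2% of its exonic bases (chr12:65062436-65073944, ENSMUSG00000020949) overlap Prpf39 on the other strand and the strand setting of the counting is not given in the sources used here. Prpf39 was not called with any compound (0.00 with each). Its nuclear partners Yy1, Hdac1, Hdac2, Mdm2 and Ncl all fell with rapamycin and Torin1, and 4 of 5 fell with RapaLink-1, while Mdm2 was not called (-0.03) but rose with upper-quartile factors. Hdac1, a histone deacetylase, changed by -0.20, -0.65 and -0.62 with rapamycin, Torin1 and RapaLink-1, and the transcription factor Yy1 by -0.24, -0.43 and -0.34.

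Fkbp8, whose protein FKBP38 sits in the outer mitochondrial membrane and binds BCL-2, was the steadiest member. Its level was 194.9, 191.7 and 200.2 CPM in DMSO, 201.9, 194.1 and 198.3 in rapamycin, 181.7, 184.4 and 177.9 in Torin1, and 184.5, 183.2 and 185.1 in RapaLink-1. Rapamycin overlaps DMSO, and the other groups lie slightly below. On the log2 scale the change was 0.02 ± 0.02 with rapamycin (adjusted p = 0.441), -0.11 ± 0.02 with Torin1 (adjusted p = 4.10e-07) and -0.09 ± 0.02 with RapaLink-1 (adjusted p = 5.43e-05). These falls depend on the scaling: with upper-quartile factors the value was 0.02 with Torin1 (adjusted p = 0.450) and 0.05 with RapaLink-1 (adjusted p = 0.0181), and rapamycin became a rise of 0.08. Leaving out genes averaging under 5 CPM ended both falls (-0.02 with Torin1, adjusted p = 0.383, and 0.00 with RapaLink-1, adjusted p = 0.957) and gave a rise with rapamycin (0.08). The gene (ENSMUSG00000019428, chr8:70527724-70535328, plus strand) shares 4.95% of its exonic bases with Kxd1 on the other strand, which rose by 0.31, 1.12 and 0.98 with rapamycin, Torin1 and RapaLink-1. Among 8 tested partners of FKBP38 and genes of mitophagy, 5 rose with each compound, and 2, 3 and 2 fell with rapamycin, Torin1 and RapaLink-1 (1, 0 and 0 with upper-quartile factors). Bcl2 rose by 0.37, 1.03 and 0.66, and Pink1, a kinase that marks damaged mitochondria, rose most with Torin1 (1.41), whereas Rheb, the activator of mTOR complex 1, changed by -0.09, -0.13 and -0.16.

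Of the ER members, Fkbp2 (FKBP13) fell most. It had 54.2, 59.1 and 55.6 CPM in DMSO, 46.6, 40.9 and 40.4 in rapamycin, 27.2, 25.8 and 27.2 in Torin1, and 27.6, 27.1 and 26.5 in RapaLink-1. The rapamycin libraries lie between DMSO and the other compounds, which overlap. Its log2 fold change was -0.40 ± 0.04 with rapamycin (adjusted p = 5.17e-19), -1.07 ± 0.04 with Torin1 (adjusted p = 6.07e-53) and -1.06 ± 0.04 with RapaLink-1 (adjusted p = 2.72e-52). The gene (ENSMUSG00000056629) lies at chr19:6977741-6980461 on the minus strand and shares no exonic base with another gene.

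General ER chaperones fell in the same comparisons. Of 14 tested genes, 13 fell and 1 rose with each compound, with a median log2 fold change of -0.35 with rapamycin, -1.14 with Torin1 and -1.06 with RapaLink-1. Hspa5 (BiP), the main HSP70 of the ER, changed by -0.51, -1.62 and -1.43 in that order. Sdf2l1, a partner of BiP, had the largest fall with Torin1 (-2.53), and Dnajb9 was the gene that rose (0.62). The Fkbp2 change of -1.07 with Torin1 is thus close to the median of this list, and the other ER members changed less.

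Fkbp10 had 270.2, 269.0 and 275.9 CPM in DMSO, 254.1, 248.4 and 253.0 in rapamycin, 215.4, 214.0 and 211.6 in Torin1, and 204.2, 208.8 and 201.4 in RapaLink-1. The 4 groups do not overlap, and they fall in the order just given. The log2 change was -0.11 ± 0.02 with rapamycin (adjusted p = 7.82e-08), -0.35 ± 0.02 with Torin1 (adjusted p = 9.56e-41) and -0.41 ± 0.02 with RapaLink-1 (adjusted p = 1.84e-48). RapaLink-1 lay below Torin1 by a small step, -0.06 ± 0.02 (adjusted p = 0.00868), which was not called by DESeq2 (adjusted p = 0.0560) or without Torin1 replicate 1, RapaLink-1 replicate 1 or RapaLink-1 replicate 3 (0.0808, 0.0642 and 0.169). The gene (ENSMUSG00000001555, chr11:100415697-100424824, plus strand) shares 6.58% of its exonic bases with Nt5c3b on the other strand.

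Fkbp14 (FKBP22) was, under the TMM scaling and the main filter on low counts, the only member that rose with a compound. When genes averaging under 5 CPM were left out, Fkbp8 also rose with rapamycin (0.08). It had 27.8, 28.9 and 30.4 CPM in DMSO, 30.8, 31.9 and 31.8 in rapamycin, 26.2, 23.9 and 25.4 in Torin1, and 26.6, 27.7 and 28.5 in RapaLink-1. Rapamycin lies just above DMSO, Torin1 just below it, and RapaLink-1 overlaps DMSO. The fitted log2 change came to 0.12 ± 0.04 with rapamycin (8.41%, adjusted p = 0.0129), -0.21 ± 0.04 with Torin1 (adjusted p = 1.28e-05) and -0.07 ± 0.04 with RapaLink-1 (adjusted p = 0.132). The rise was not called by DESeq2 (adjusted p = 0.0637) or without DMSO replicate 1 (0.132) or rapamycin replicate 3 (0.0543), and the fall with Torin1 was not called with upper-quartile factors (-0.08, adjusted p = 0.0921). Without DMSO replicate 1 the RapaLink-1 change was called as a fall (-0.10, adjusted p = 0.0460). The gene (ENSMUSG00000038074, chr6:54577604-54597308, minus strand) shares 5.01% of its exonic bases with Plekha8 on the other strand, which was not called with rapamycin (-0.05) and fell with Torin1 (-0.32) and RapaLink-1 (-0.33).

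Fkbp9, an ER member with several isomerase domains, had 360.0, 365.5 and 369.1 CPM in DMSO, 354.8, 357.1 and 364.7 in rapamycin, 301.7, 300.5 and 302.4 in Torin1, and 304.7, 308.3 and 309.1 in RapaLink-1. Rapamycin overlaps DMSO and the other groups lie below both. On the log2 scale the change was -0.02 ± 0.02 with rapamycin (adjusted p = 0.235), -0.27 ± 0.02 with Torin1 (adjusted p = 4.72e-34) and -0.25 ± 0.02 with RapaLink-1 (adjusted p = 8.82e-30). With upper-quartile factors the rapamycin value was called as a rise of 0.04 (adjusted p = 0.0395). The gene (ENSMUSG00000029781) lies at chr6:56832059-56879358 on the plus strand.

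Fkbp7 (FKBP23), known to bind BiP, was thinly covered, with 494 to 801 counts per library. It had 21.04, 21.38 and 20.95 CPM in DMSO, 21.8, 17.4 and 19.5 in rapamycin, 15.9, 15.5 and 15.0 in Torin1, and 16.7, 14.0 and 14.0 in RapaLink-1. The rapamycin libraries spread from above DMSO to well below it, while Torin1 and RapaLink-1 lie under every other library. Its log2 fold change was -0.45 ± 0.06 with Torin1 (adjusted p = 4.49e-12) and -0.51 ± 0.06 with RapaLink-1 (adjusted p = 3.00e-14). With rapamycin it was -0.10 ± 0.05 (adjusted p = 0.0898), and without rapamycin replicate 1 it was called at -0.19 (adjusted p = 0.00333). The gene (ENSMUSG00000002732) lies at chr2:76663044-76673116 on the minus strand.

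**Figure D3:**
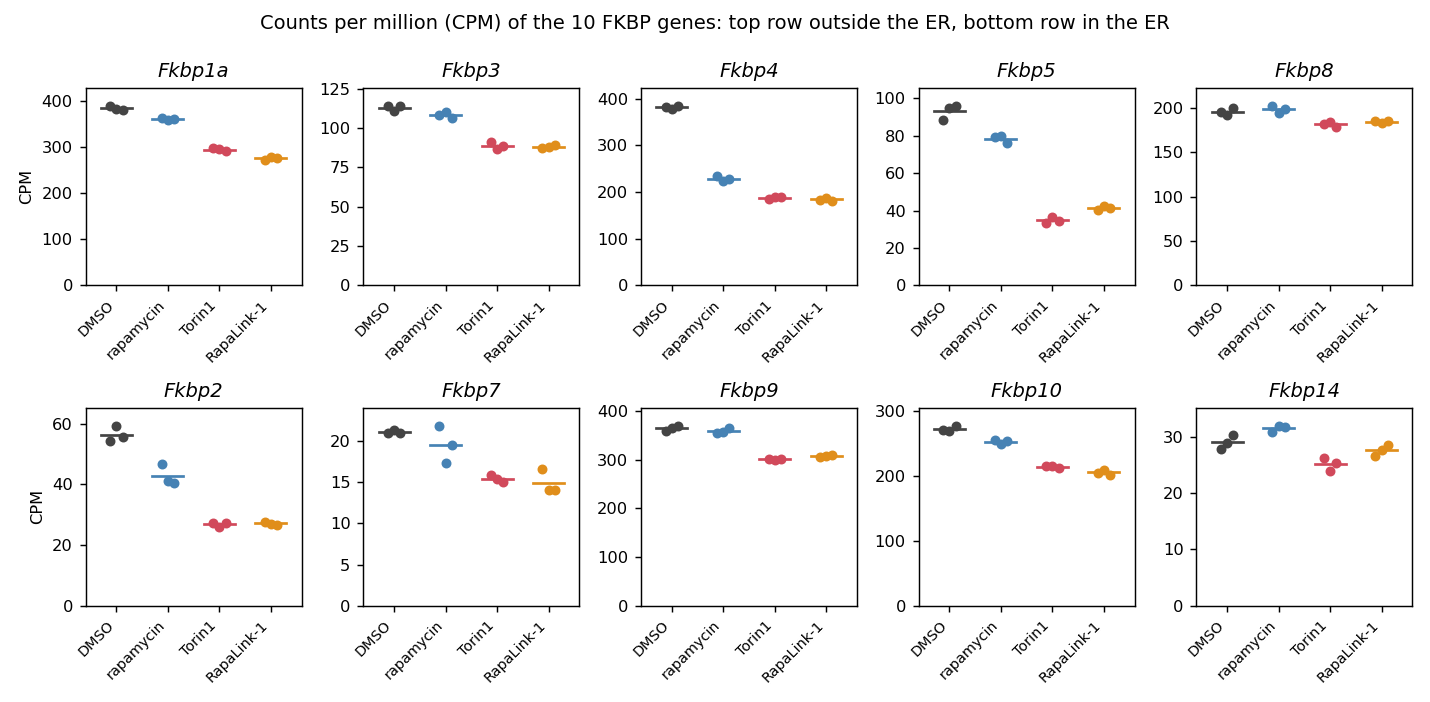
CPM (y axis from 0, its own scale per gene) of each FKBP gene in each of 12 libraries, with a line at the group mean; the top row holds genes outside the ER and the bottom row ER genes. Fkbp4 drops from about 381.3 to 228.6 with rapamycin already. Fkbp5 goes from 93.1 in DMSO to 78.4 with rapamycin and to 34.7 with Torin1.

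Genes for the folding, modification and export of collagen, the setting in which Fkbp10 and Fkbp14 work, were mixed; the list also holds Sparc, the channel gene Tmem38b and the transcription factor gene Creb3l1. Of 19 tested genes, 11 fell and 6 rose with rapamycin, 13 fell and 2 rose with Torin1, and 12 fell and 2 rose with RapaLink-1, with medians of -0.13, -0.17 and -0.24 on the log2 scale. With upper-quartile factors the Torin1 counts were 9 falls and 4 rises and those of RapaLink-1 10 and 7. Serpinh1 (HSP47), the collagen-specific chaperone, changed by -0.54, -1.17 and -1.01 with rapamycin, Torin1 and RapaLink-1, which is more than Fkbp10. The prolyl hydroxylase P3h1 changed by -0.16, -0.17 and -0.18, and its relative P3h3 rose with Torin1 (0.55). Plod1 and Plod2, lysyl hydroxylases, changed by -0.13, -0.28 and -0.24 and by -0.14, -0.11 and 0.01, the last without a call. Of 9 matrix protein genes, 8 for collagen chains and Fn1 for fibronectin, 7 fell and 2 rose with rapamycin, 8 fell and 1 rose with Torin1 (5 and 3 with upper-quartile factors), and 7 fell and 2 rose with RapaLink-1. Col1a1 changed by -0.32, -0.65 and -0.71, Col3a1 by -0.31, -1.28 and -1.28, and Fn1 was the gene that rose with Torin1 (1.01).

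**Figure D4:**
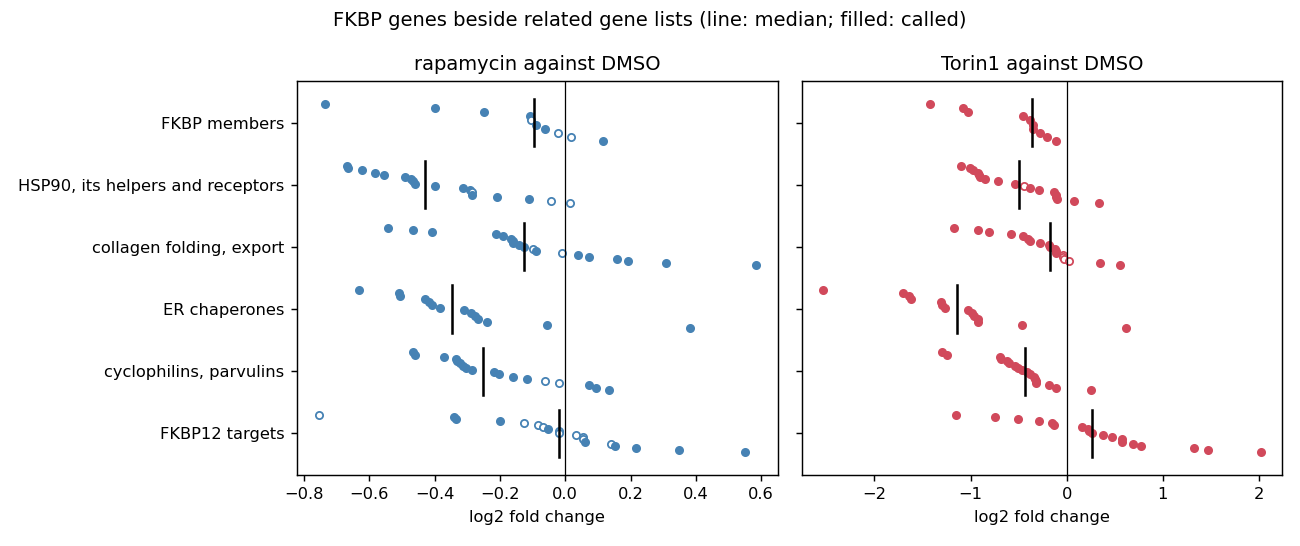
Log2 fold change (x axis, a scale per panel) of each gene of the FKBP family and of 5 related lists with rapamycin and with Torin1 against DMSO, filled where called, with a line at the list's median. With Torin1 the FKBP median is -0.36 and that of ER chaperones -1.14, while that of FKBP12 targets is 0.27. The list named FKBP12 targets also holds partners of mTOR in its complexes.

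The compounds were also set against each other at the doses given. All 10 members were lower in Torin1 than in rapamycin, with log2 differences from -1.17 (Fkbp5) to -0.13 (Fkbp8), and all 10 were lower in RapaLink-1 than in rapamycin, from -0.92 (Fkbp5) to -0.11 (Fkbp8). Among all genes, 67.5% were called between Torin1 and rapamycin (34.2% higher and 33.2% lower in Torin1) and 65.0% between RapaLink-1 and rapamycin (32.0% higher and 33.0% lower in RapaLink-1). No member's libraries overlapped in either comparison, which held for 69.2% and 67.4% of all genes. Both comparisons use the same rapamycin libraries. Fkbp4 differed less here (-0.29 in Torin1 and -0.31 in RapaLink-1) than it did between rapamycin and DMSO, and Fkbp5 the reverse. Fkbp8 lost its call between RapaLink-1 and rapamycin with upper-quartile factors (-0.03, adjusted p = 0.177).

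RapaLink-1 and Torin1 gave FKBP levels that differed by 0.25 at most on the log2 scale. Differences were small over all genes too, with a median size of 0.11. In this comparison 33.2% of all genes were called (16.7% higher and 16.4% lower in RapaLink-1), and 4 of 10 members were: Fkbp5 (0.25) and Fkbp14 (0.14 ± 0.05, adjusted p = 0.0121) were higher in RapaLink-1, and Fkbp1a (-0.09) and Fkbp10 (-0.06) were lower. Without RapaLink-1 replicate 3 only Fkbp1a and Fkbp5 were called, and Fkbp14 was also not called without Torin1 replicate 2 (adjusted p = 0.102). The other 6 had values from -0.06 (Fkbp7, 95% interval -0.18 to 0.06) to 0.03 (Fkbp9, 95% interval -0.01 to 0.06). A missed call leaves room for differences of the size of these intervals. The libraries of 5 members did not overlap, Fkbp9 among them, against 42.2% of all genes.

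FKBP relatives outside the 10 were mostly low, and they did not move as one. Fkbp6, a gene known from germ cells, had no count in any library, which allows at most 3 counts per library, or 0.0761 to 0.0997 CPM, by counting error alone. Fkbp11, another ER member, fell with rapamycin (-0.49), Torin1 (-0.61) and RapaLink-1 (-0.57). Fkbpl rose by 0.24, 0.26 and 0.24, and Aipl1, at 0.923 to 2.21 CPM, by 0.53, 0.96 and 0.64. Fkbp1b, the close relative of Fkbp1a that binds ryanodine receptors, had 1.85 to 3.45 CPM and rose with rapamycin (0.45, adjusted p = 0.00315) and RapaLink-1 (0.33, adjusted p = 0.0300) but was not called with Torin1 (0.21, adjusted p = 0.176), which became a rise with upper-quartile factors (0.34). Fkbp15 was not called with rapamycin (0.00) and rose with Torin1 (0.09) and RapaLink-1 (0.22). Among these rises, the libraries overlapped those of DMSO for Fkbp15 and Fkbpl with Torin1 and for Fkbp1b with RapaLink-1.

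Likeness of pattern was measured over the 12 libraries as the root mean square (RMS) difference of log2 CPM after each gene was centred on its mean, where 0 is an identical pattern. Among members, Fkbp3 and Fkbp10 were closest (0.036) and Fkbp5 and Fkbp8 farthest apart (0.547). Fkbp4 and Fkbp5, which share HSP90, differed by 0.324, and Fkbp4 was nearer to Fkbp2 of the ER (0.163). Among 9157 genes of at least 10 CPM on average, the nearest to Fkbp4 were Tcof1, Ifrd2 and Pno1 (0.036 to 0.038, against a median of 0.398 over all), of which Tcof1 and Pno1 are known from ribosome production. The nearest to Fkbp5 were Tubb4b, Ccnb1 and Cdc45 (0.052 to 0.053, median 0.570), a tubulin, a mitotic cyclin and a DNA replication factor. The nearest to Fkbp1a were Bcap31, Zfp36l2 and Actr1a (0.028 to 0.031, median 0.224), to Fkbp10 Ewsr1, Tex261 and Cox8a (0.018 to 0.024, median 0.208), and to Fkbp14 Zadh2, Adam10 and Stard3 (0.041 to 0.046, median 0.212). These genes share the same libraries and treatments, and the measure is a description.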

How the data were processed

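Each library had 1 deposited table of unnormalized gene counts, written by featureCounts per the file headers. The submitters' processing notes list GRCm38, DESeq2, Subread 1.5.2, STAR 2.5.2b and Trimmomatic 0.36. The labels' protocols name the NEBNext Ultra RNA kit; the sources used here give no strand setting, no rule for multiply matching reads and no annotation release. Positions were taken from the count tables. In edgeR 4.0.16 (R 4.3.3) a robust quasi-likelihood model with the group alone was fitted to all 12 libraries, after filterByExpr by group (15917 genes) and TMM scaling; p-values are two-sided. There were 8 residual degrees of freedom, and the biological coefficient of variation was 1.48%. The spread shared across genes added a median of 154 prior degrees of freedom, so p-values and intervals rest mostly on that shared spread. RPKM used the tables' exon lengths. The test was also run on simulated counts, drawn from the DMSO means with only a small set of genes changed up and down. Such counts cannot show how the scaling behaves where most genes move, as they do here. The alternatives were other scalings, filters, DESeq2 1.42.0, a replicate block, fits of 2 groups and leaving out each library. Exact duplicates were sought with a chi-square test: over its degrees of freedom it was 1.33 to 1.99 for replicate pairs, so all libraries were kept. The members and lists were chosen with earlier results of these data known. Named beside the members are the other FKBP genes (1 is not reported here), key partners chosen by function, each list's largest Torin1 rise and fall at 10 CPM or more, the 3 nearest genes of 5 members, members of the FKBP3 list and genes overlapping members.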

Additional observations from a re-analysis of the deposited data

How the results depend on the processing

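Of 780 values of single members under the alternatives, 742 kept direction and side of the threshold, 20 lost the call, 4 gained it and 14 changed sign; the cause was not tested. With upper-quartile factors the sign changed for Fkbp3 (0.0021) and Fkbp9 (0.0393) with rapamycin, Fkbp8 with Torin1 (0.0167), Fkbp8 (0.0507) and Fkbp14 (0.0668) with RapaLink-1 and Fkbp3 between RapaLink-1 and Torin1 (0.0016). Testing only genes of at least 5 CPM turned Fkbp9 with rapamycin (0.0346) and Fkbp14 with RapaLink-1 (0.0149). Between RapaLink-1 and Torin1, Fkbp3 was 8e-04 with relative log expression factors, 5e-04 in DESeq2 and -0.0184 to 0.0149 when 1 library was left out (above 0 without Torin1 replicate 1 or RapaLink-1 replicates 1 or 2), and Fkbp2 ranged from -0.0016 (without Torin1 replicate 2) to 0.0388. The number of members called there ranged from 2 (without RapaLink-1 replicate 3) to 4 when 1 library was left out. Upper-quartile factors turned 4381 rises and 5127 falls over all genes with rapamycin into 5481 and 4061, 6332 and 6090 with Torin1 into 7640 and 4999, and 6165 and 6036 with RapaLink-1 into 7629 and 4823. No same-numbered pair of libraries correlated above 0.1 (18 pairs, from -0.039 to 0.059), so the numbers were not taken as pairs; with the replicate block the members called were 7 with rapamycin, 10 with Torin1, 9 with RapaLink-1, 10 and 10 against rapamycin and 4 between RapaLink-1 and Torin1, as without it. The fit pools its spread over all 12 libraries, so a group left with fewer libraries is assumed to vary like the others. Against DMSO, upper-quartile factors changed the sign or ended the call of changes of up to 0.21 in size on the log2 scale: Fkbp1a, Fkbp3 and Fkbp9 with rapamycin, Fkbp8 and Fkbp14 with Torin1 and with RapaLink-1.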

Other observations

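Cyclophilins and parvulins, the other families of proline isomerases, fell as a group of genes more often than they rose. Of 18 tested genes, 13 fell and 3 rose with rapamycin, 17 fell and 1 rose with Torin1, and 16 fell and 1 rose with RapaLink-1, with median log2 fold changes of -0.25, -0.44 and -0.47, while the FKBP medians were -0.10, -0.36 and -0.44. Ppia (cyclophilin A), the cytosolic receptor of cyclosporin, changed by -0.16, -0.53 and -0.62 in that order. Ppib (cyclophilin B), the ER partner of P3h1, rose slightly with rapamycin (0.07) and fell with Torin1 (-0.18) and RapaLink-1 (-0.36). Ppil1, known from the spliceosome, had the largest fall with Torin1 (-1.30), and Ppil2 was the gene that rose (0.25). Ppid, which binds HSP90 as Fkbp4 and Fkbp5 do, changed by -0.46 with rapamycin, -0.39 with Torin1 and -0.43 with RapaLink-1; it also counts among the HSP90 helpers above.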
